A study of Mus musculus with 4 samples.

Results

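The genes examined here are 9 regulators of limb patterning: Shh, Gli3, Hand2, Tbx4, Tbx5, Pitx1, Msx1, Msx2 and Lmx1b. They were chosen by name, by taking every array probe whose gene name is one of the 9, with no cut-off on measured values. This gave 14 probes, printed as 50 spots, out of 41174 probes and 43379 non-control spots on the array. Shh, Pitx1, Msx2 and Lmx1b each had 1 probe, and the other 5 genes each had 2 probes.

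The RNA came from mouse limb and mouse brain at E13.5, from embryos that were either wild type (WT) or with conditional ablation of Rest (CKO), on a background of 129 and C57BL/6. Rest encodes a transcriptional repressor of neuronal genes. CKO embryos carried floxed Rest and Cre alleles switched on by doxycycline, and doxycycline from E8.5 to E13.5 is recorded for every sample, including the WT ones. Each tissue and genotype had 1 single-colour array (4 in all), with no replicates. Which cells expressed the Cre, which part of Rest was floxed, whether the limbs were forelimbs or hindlimbs, and whether RNA came from 1 embryo or from several are not given in the sources used here.

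Limb buds are patterned along 3 axes by a small set of signals and transcription factors. Sonic hedgehog (Shh) is secreted from the posterior margin, where Hand2 activates it, and in receiving cells the zinc finger factor Gli3 is processed to a repressor unless the signal is present. The T-box factor Tbx5 marks the forelimb, Tbx4 and the homeodomain factor Pitx1 mark the hindlimb, Lmx1b specifies the dorsal side, and Msx1 and Msx2 are homeodomain factors expressed under bone morphogenetic protein (Bmp) signalling. Several of these genes also work in the embryonic head: Shh in the floor plate and ventral forebrain, Gli3 in the dorsal forebrain, Lmx1b in midbrain and hindbrain neurons, Pitx1 in the pituitary primordium, and Msx1 and Msx2 in the dorsal midline and the cranial mesenchyme.

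Probe positions are those of the array files, on mm9. Values are log2 fluorescence after subtraction of each array's 75th percentile, so 0 is the 75th percentile of that array. A probe counted as detected when at least 50% of its usable spots were called well above background by the scanner software. Where it was detected on only 1 array of a pair, the difference is a lower bound, written "at least". The error given with a difference is the SD of a single spot's difference. It was measured directly for probes printed 10 times and taken from the 50 such probes nearest in level for the others. It covers printing and scanning only, not labelling or differences between embryos. In whole tissue, fewer cells of a type and less RNA per cell cannot be told apart.

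The arrays shared a slide and a scan day, with 62.7% to 70.7% of non-control spots well above background. The targeted gene was lower in both CKO samples: the Rest probe at chr5:77709928-77709987 read 2.41 against -1.56 in limb (WT, CKO) and -0.16 against -3.73 in brain, a 15.7-fold and an 11.9-fold reduction. A second Rest probe differed by 4.03-fold in limb and 1.88-fold in brain, and the remaining probe by 17.2-fold in limb and at least 6.60-fold in brain. The tissue labels were checked with marker lists: all 12 pan-neuronal genes were at least 2-fold higher in the WT brain sample than in the WT limb sample, with a median difference of 5.87, and all 10 epidermal genes were at least 2-fold lower, with a median of -6.73.

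Both limb arrays detected 11 of the 14 probes, for 7 of the 9 genes, with Shh and Lmx1b not well above background. WT brain detected 6 probes for 5 genes, and CKO brain detected 8 probes for 7 genes. The 5 probes detected on every array belong to Gli3, Pitx1, Msx1 and Msx2.

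**Figure D1:**
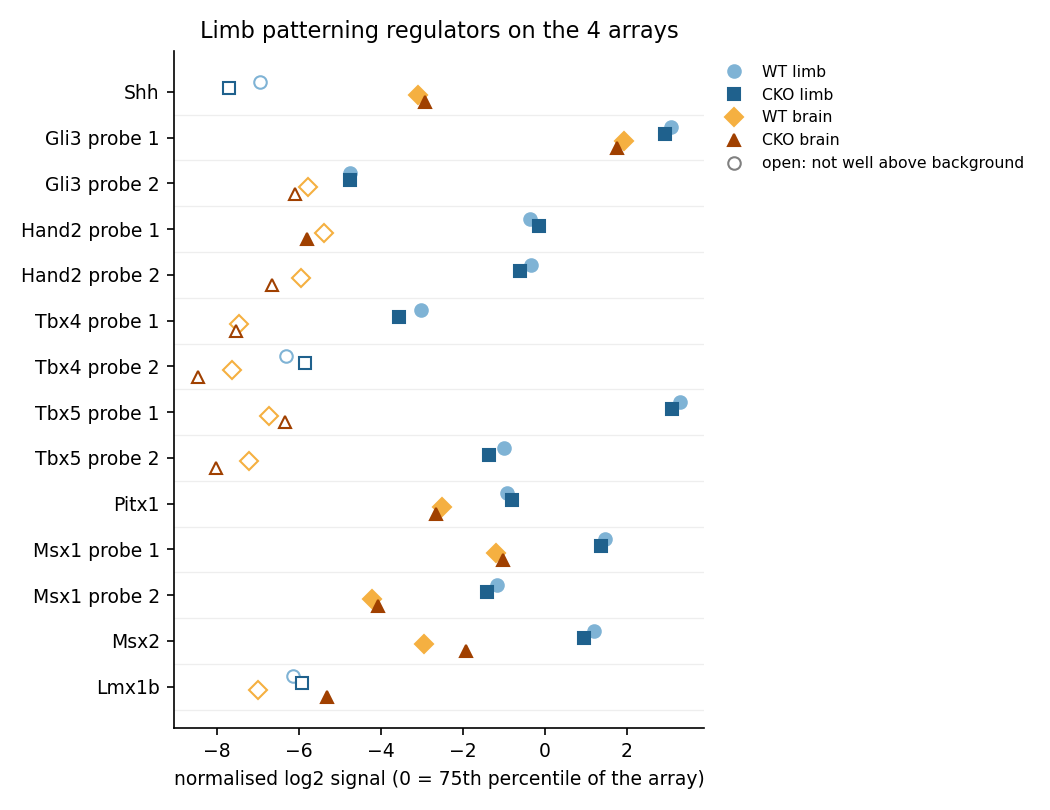
Normalised log2 signal of the 14 probes (rows) on each of the 4 arrays, 1 array per group. Filled symbols were well above background and open symbols were not. Tbx5 and Hand2 are bright in both limb samples and at background level in WT brain, while Shh is detected in both brain samples alone.

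Shh, a Hedgehog ligand, was measured at chr5:28783983-28784042 by a probe printed 10 times on each array. Its mean was -6.96 in WT limb and -7.72 in CKO limb, with 0 of 9 and 0 of 10 spots well above background, and -3.10 in WT brain and -2.93 in CKO brain, with 10 of 10 spots well above background in each. All limb spots lay below all brain spots. In intensity before scaling, the brain spots ran from 92.6 to 117 in WT and from 118 to 154 in CKO, and after scaling the brain spots of the 2 genotypes overlapped. Before scaling, the limb spots ran from 5.48 to 7.20 in WT and from 3.71 to 7.23 in CKO. Another WT limb spot, with an intensity of 32.3, was marked as an outlier by the scanner software and left out. In WT, Shh was therefore at least 3.61-fold higher in brain than in limb, and it was at least 7.09-fold higher in CKO brain than in CKO limb. With model-based background correction (normexp) these bounds fell from 1.85 to 0.84 in WT, below 2-fold, and from 2.83 to 1.13 in CKO on the log2 scale. In brain, CKO exceeded WT by 0.16 (SD of a single-spot difference 0.17, 10 spots per array), which is within the spread of single spots. Limb gave no comparison for Shh, because neither array detected it.

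Shh in the neural tube is produced by the floor plate, and 10 floor plate and ventral midline markers were read beside it. Of the 9 compared between WT tissues, 7 were at least 2-fold higher in brain and 2 at least 2-fold lower, against 15.8% and 18.9% of all genes. The lower ones were Corin, at -1.95, and Nkx2-9, with a bound of -1.90. Between CKO and WT brain, 0 of the 9 detected in brain differed by 2-fold, with a median of 0.01, against 2.59% of all genes. Between CKO and WT limb, 1 of 5 compared was at least 2-fold lower: Nkx2-9, detected in WT limb only, with a bound of -2.30. Of this list, Foxa2, Foxa1, Nkx2-2, Nkx2-1 and Ferd3l were not detected on either limb array.

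Gli3, the transducer of the signal, was measured by a bright probe at chr13:15821502-15821561. It read 3.08 (WT) and 2.93 (CKO) in limb, and 1.94 (WT) and 1.76 (CKO) in brain. Both limb values lay above both brain values, and within each tissue the CKO value was slightly below WT. The CKO minus WT difference was -0.15 in limb (SD 0.065) and -0.18 in brain (SD 0.066), both under 1.14-fold. Brain was 2.20-fold lower than limb in WT and 2.25-fold lower in CKO. A limma fit of genotype and tissue over the 4 arrays gave a tissue effect of -1.15 (SE 0.056, Benjamini-Hochberg adjusted p = 0.005446) and a genotype effect of -0.16 (SE 0.056, adjusted p = 0.6347).

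The other Gli3 probe, at chr13:15818729-15818787 and printed 10 times, was dim. It read -4.76 (WT) and -4.74 (CKO) in limb, and -5.79 (WT) and -6.09 (CKO) in brain, with 6 of 9, 10 of 10, 0 of 8 and 3 of 10 spots well above background. Its limb values differed by 0.01 (SD 0.28), and brain was lower by at least 1.52-fold in WT and at least 2.54-fold in CKO. The CKO bound of -1.34 became -0.52 with normexp, below 2-fold. Both Gli3 probes thus read lower in brain in both genotypes.

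**Figure D2:**
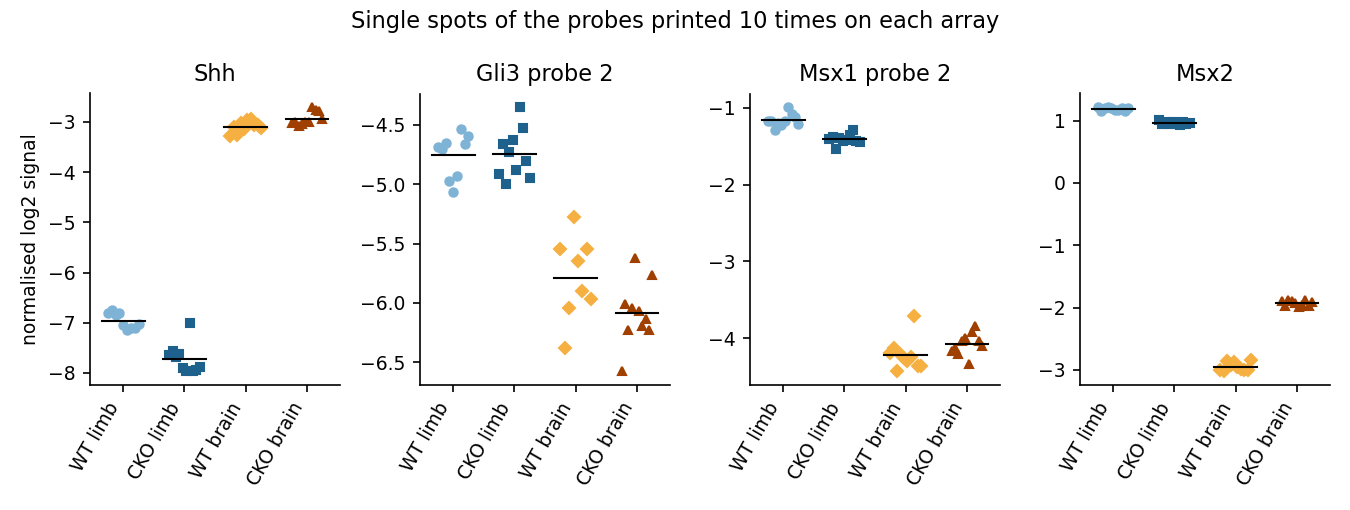
Single-spot values (points, normalised log2 signal) and their mean (line) for the 4 probes printed 10 times on each array, with outlier spots left out. Spots of 1 array are technical repeats. Msx2 spots in CKO brain all lie above those in WT brain, with means of -1.93 and -2.95, while the Shh spots of the brain arrays overlap.

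The rest of the Hedgehog pathway was read from a list of 20 genes, all present on the array, with the brightest probe of each gene. Between CKO and WT, 0 of 19 compared genes differed by 2-fold in limb (median -0.07, against -0.02 over all 18449 genes compared) and 0 of 19 in brain (median 0.03, against -0.01 over 18944 genes). Across all genes, 4.65% passed 2-fold in limb (2.49% higher, 2.16% lower) and 2.59% in brain (1.37% higher, 1.22% lower). Between tissues, 11 of 19 were at least 2-fold lower in brain than in limb of WT and 2 were higher, Shh and Hhipl1, with a median of -1.36 against 0.00 over all genes, where 18.9% were lower and 15.8% higher. Shh and Hhipl1, not detected in WT limb, could not enter the limma fit, which took only probes well above background on every array. Of the 14 pathway genes tested in that fit, 11 had a lower level in brain and 0 a higher one. The 3 that did not pass were the ligand Dhh, the acyltransferase Hhat that lipidates Hedgehog ligands, and the receptor Ptch1.

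Among receptors and co-receptors, Smo, the signal transducer at the membrane, read 4.49 (WT) and 4.36 (CKO) in limb, and 3.12 (WT) and 3.11 (CKO) in brain. The co-receptor Gas1 read 3.30, 2.90, 0.39 and 0.21 in that order, a tissue effect of -2.80 (SE 0.087, limma adjusted p = 0.00513). The receptor Ptch1, itself switched on by the signal, read -0.60, -0.83, -0.93 and -0.90, and its tissue effect was -0.20 (SE 0.096, limma adjusted p = 0.1699). Gli1, the target gene most often used as a readout of the pathway, read -1.54 (WT) and -1.73 (CKO) in limb, and -4.54 (WT) and -3.96 (CKO) in brain. Gli1 was 8.01-fold lower in brain than in limb of WT, and CKO brain exceeded WT brain by 0.58. Thus Shh was detected in the tissue in which Smo, Gas1, Gli1 and Gli3 read lower. Shh is not the only Hedgehog ligand on the list. Dhh was detected on every array, at -1.66 (WT) and -1.08 (CKO) in limb, and -2.12 (WT) and -2.39 (CKO) in brain. Ihh was detected in CKO limb alone, at -4.65. Whether the cells that make Shh were among those sampled in limb was not tested.

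Hand2, a basic helix-loop-helix factor of the posterior limb bud, was measured by 2 probes that both cross an intron, at chr8:59801214-59802573 and chr8:59801251-59802610. Their sequences are shown because they share 23 bases (in capitals) and still differed in the sign of a small limb difference.
Hand2 probe 1: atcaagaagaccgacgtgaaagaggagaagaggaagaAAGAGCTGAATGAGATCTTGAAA
Hand2 probe 2: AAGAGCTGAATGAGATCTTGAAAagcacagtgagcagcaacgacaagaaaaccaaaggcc

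Hand2 probe 1 read -0.36 (WT) and -0.14 (CKO) in limb, and -5.40 (WT) and -5.79 (CKO) in brain, and the WT brain value was not well above background. Hand2 probe 2 read -0.33, -0.60, -5.94 and -6.65 in that order, with neither brain value well above background. All 4 limb readings lay far above all 4 brain readings. WT limb exceeded WT brain by at least 32.0-fold on probe 1 and at least 32.6-fold on probe 2. CKO limb exceeded CKO brain by 50.4-fold on probe 1 and at least 48.2-fold on probe 2. The first of these rests on a CKO brain reading at an intensity of 18.1, which passed the detection call although the WT brain reading of 21.4 did not. With normexp the tissue differences were smaller, at least 3.22 on probe 1 and 3.35 on probe 2 in WT, and 3.68 and at least 3.42 in CKO, on the log2 scale. The CKO minus WT limb difference was 0.22 on probe 1 (SD 0.077) and -0.26 on probe 2 (SD 0.081). With opposite signs at overlapping sites, these arrays gave no direction for Hand2 in CKO limb, and the gap between the probes exceeds their spot error. Between the brain samples probe 1 gave a bound of 0 and probe 2 was not detected.

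A list of 20 genes of the anteroposterior limb network on the array, Hand2 included, gave 0 of 20 at least 2-fold different between CKO and WT limb (median -0.02). The difference furthest from 0 was that of Meis1, a proximal limb factor, at 0.75. In brain, 2 of 16 compared genes were at least 2-fold higher in CKO: Twist1 by 1.27 and Prrx1 by 1.02, both transcription factors of mesenchyme. The Prrx1 value is that of its brightest probe, and its other probes compared in brain gave 1.05, 0.84, at least 0.23 and -0.31. Between WT tissues, 13 of 20 were at least 2-fold lower in brain and 3 higher. Among those measured on both arrays, Twist1 differed by -6.48, Prrx1 by -5.04 and Tbx3, a factor of the limb margins, by -3.32, while Meis2, also a forebrain factor, was higher by 2.78. In the limma fit, 9 of 15 tested genes of this list were lower in brain and 4 were higher.

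Tbx5, the forelimb T-box factor, had the brightest limb reading relative to its own brain reading among the 14 probes. Its probe at chr5:120334087-120334146 read 3.30 (WT) and 3.10 (CKO) in limb, and -6.73 (WT) and -6.34 (CKO) in brain, with neither brain value well above background. Its second probe, which crosses an intron at chr5:120321392-120332954, read -0.99, -1.35, -7.22 and -8.02. On both probes the limb samples were bright and the brain samples at background. WT limb exceeded WT brain by at least 404-fold on the first probe and at least 20.7-fold on the second, and CKO limb exceeded CKO brain by at least 625-fold and at least 28.6-fold. With normexp the first probe's tissue differences were at least 6.46 in WT and 6.59 in CKO on the log2 scale, in place of 8.66 and 9.29. The second probe's were at least 2.46 in each, in place of 4.37 and 4.84. CKO limb was below WT limb by small amounts, at -0.20 (SD 0.065) and -0.37 (SD 0.088).

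Tbx4, the hindlimb T-box factor, was measured at chr11:85729394-85729453. It read -3.03 (WT) and -3.55 (CKO) in limb, and -7.45 (WT) and -7.55 (CKO) in brain, with neither brain value well above background. Limb exceeded brain by at least 5.02-fold in WT and at least 6.23-fold in CKO. With normexp these bounds were 1.35 in WT and 1.22 in CKO on the log2 scale, in place of 2.33 and 2.64. The CKO minus WT limb difference of -0.52 (SD 0.14), a 1.44-fold lower value, was the furthest from 0 of the 11 limb differences, and it stayed between -0.52 and -0.41 over the other scalings and background corrections. The second Tbx4 probe, at chr11:85724652-85724711, was not well above background on any array, so the limb difference rests on 1 probe.

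Pitx1, which acts upstream of Tbx4 in the hindlimb, was measured at chr13:55926417-55926476. It read -0.92 (WT) and -0.81 (CKO) in limb, and -2.50 (WT) and -2.66 (CKO) in brain. Unlike both T-box genes it was well above background on every array. Brain minus limb was -1.58 in WT and -1.85 in CKO (3.61-fold), with a limma tissue effect of -1.72 (SE 0.099, adjusted p = 0.005966). CKO differed from WT by 0.11 in limb (SD 0.081) and by -0.16 in brain (SD 0.10), and the genotype effect was -0.02 (SE 0.099, limma adjusted p = 0.9342). Tbx4 and Pitx1 thus differed with opposite signs between the limb samples.

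Tbx5, Tbx4 and Pitx1 were all detected in both limb samples. Of 8 limb identity genes on the array, 1 of 8 differed by 2-fold between the limb samples, against 4.65% of all genes. It was Hoxc10, a posterior Hox gene, which differed by -1.01, reading -3.38 in WT and -4.38 in CKO. That value is barely past 2-fold, on 1 of its 2 probes, and was not recomputed with other background corrections. The median over the list was -0.10. Hoxc9 read -1.32 and -1.65, and the more anterior Hoxc4 and Hoxc5 differed by 0.01 and 0.23. Isl1, which acts in hindlimb initiation, read -5.96 in WT limb, not well above background, and -4.07 in CKO limb, higher by at least 0.87. Isl1 was also detected in brain, at 0.71 in WT and 0.33 in CKO. In the same limb samples 12 of 12 pan-neuronal genes were higher in CKO, with a median of 1.35. The labels do not give the share of forelimb and hindlimb tissue in each sample. The part of such a share in the Tbx4, Hoxc10 and Isl1 values was not tested, nor was the part of neuronal expression in the Isl1 value.

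**Figure D3:**
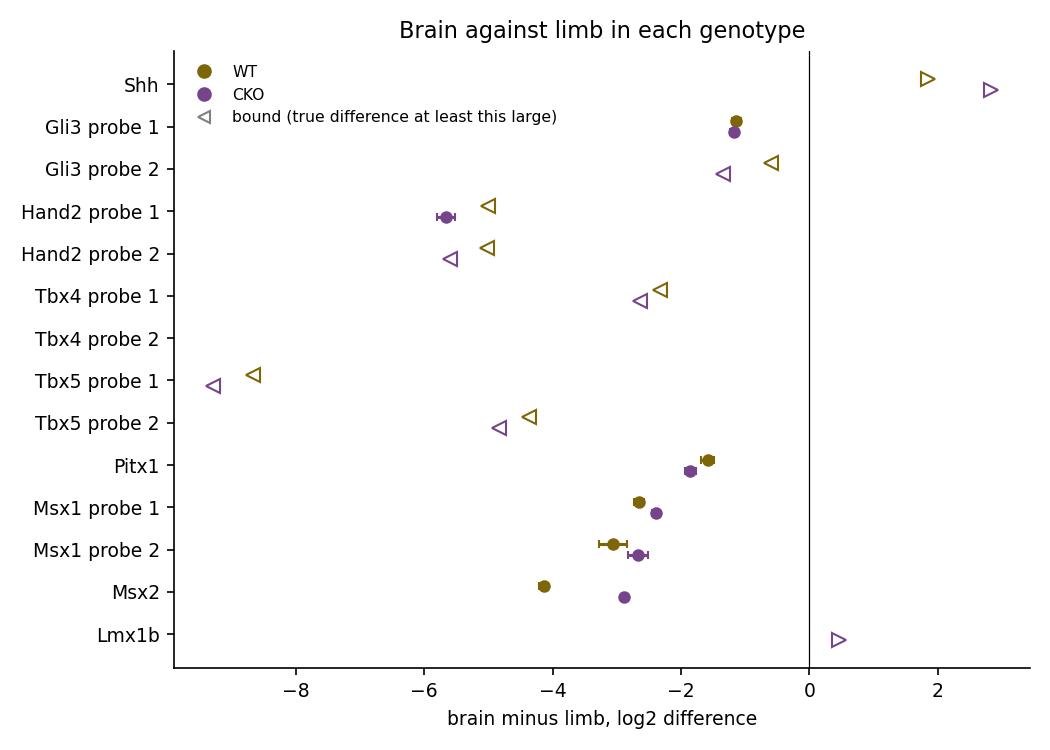
Brain minus limb log2 difference of each probe in WT and in CKO. Filled points with bars are measured on both arrays (bar, SD of a single-spot difference) and open triangles are lower bounds. Shh lies above 0 and 11 probes of Gli3, Hand2, Tbx4, Tbx5, Pitx1, Msx1 and Msx2 lie below 0 in both genotypes.

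Across the members, 10 of the 12 member probes that could be compared between WT tissues, for 7 genes, were at least 2-fold lower in brain, and 1, Shh, was at least 2-fold higher. Over all probes, 17.8% were at least 2-fold lower in WT brain and 15.6% higher. In CKO, 11 of 13 were at least 2-fold lower in brain, again for 7 genes, and 1 was higher, against 16.2% and 14.8% of all probes. The genes were picked as limb regulators, so this count describes them and is no independent support for the tissue labels. In the limma fit, which left out Shh because neither limb array detected it, all 5 member probes tested were lower in brain. Among the 23688 probes tested, 34.7% were lower and 32.1% higher. That fit had 1 residual degree of freedom and assumes an equal genotype effect in both tissues. Its residual is the gap between the genotype differences of the 2 tissues. Any unlike effect in the tissues and any spread between samples both enter that gap, so the p-values do not measure spread between embryos.

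Msx1 was measured by 2 adjacent probes. The probe at chr5:38212305-38212364 read 1.47 (WT) and 1.36 (CKO) in limb, and -1.19 (WT) and -1.03 (CKO) in brain. The probe at chr5:38212242-38212299, printed 10 times, read -1.16, -1.41, -4.22 and -4.08. Both probes put both limb samples above both brain samples, with brain lower by 6.29-fold and 8.33-fold in WT and by 5.24-fold and 6.35-fold in CKO. With normexp the second probe's differences of -3.06 and -2.67 became -2.04 and -1.88. The limma tissue effects were -2.52 (SE 0.098, adjusted p = 0.005143) and -2.86 (SE 0.13, adjusted p = 0.005371). CKO minus WT was -0.10 (SD 0.069) and -0.25 (SD 0.10) in limb. In brain it was 0.16 (SD 0.078) and 0.14 (SD 0.24), and the second of these turned to -0.06 with the normexp background.

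Msx2 was the one member that passed 2-fold between genotypes. Its probe at chr13:53563333-53563392, printed 10 times, read 1.19 (WT) and 0.96 (CKO) in limb, and -2.95 (WT) and -1.93 (CKO) in brain. In intensity before scaling, the brain spots ran from 111 to 126 in WT and from 253 to 274 in CKO, and the spots of the 2 arrays did not overlap. CKO brain exceeded WT brain by 1.02 (SD of a single-spot difference 0.081, SE 0.026, 10 spots per array), or 2.03-fold. In limb the spots ran from 1730 to 1814 in WT and from 1762 to 1862 in CKO before scaling, and the scaled difference was -0.23 (SD 0.033, SE 0.010). The brain difference was therefore 1.25 above the limb difference, a contrast between single arrays that was not tested. It ranged from 0.68 to 1.04 in brain over the other scalings and background corrections, with the 0.68 from the normexp background, so the call at 2-fold depends on the background correction.

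Msx2 was higher in limb in both genotypes: brain was 17.6-fold lower than limb in WT and 7.41-fold lower in CKO. With normexp the WT difference of -4.14 became -3.51. The limma tissue effect was -3.51 (SE 0.39, adjusted p = 0.01212). The genotype effect over both tissues was 0.39 (SE 0.39, limma adjusted p = 0.7161). Because the fit assumes an equal genotype effect in both tissues, the unlike brain and limb differences of Msx2 add to this SE.

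Over the members, 0 of 11 probes compared between CKO and WT limb reached 2-fold, where 4.20% of 28231 probes did. Of the 11 limb differences 8 were below 0 and 3 above, from -0.52 to 0.22. In brain 1 of 8 probes compared reached 2-fold, where 2.29% of 29023 probes did (1.15% higher and 1.15% lower). In the limma genotype fit 0 of 23688 probes passed an adjusted p of 0.05, with 1634 at an unadjusted p of 0.05. The genotype effects of the 5 member probes in it had adjusted p-values from 0.6347 to 0.9342. Rest itself did not pass this fit: its probe at chr5:77709928-77709987 had an effect of -3.77 (SE 0.13, limma adjusted p = 0.6347), so the members' p-values there say nothing about the absence of a genotype effect.

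**Figure D4:**
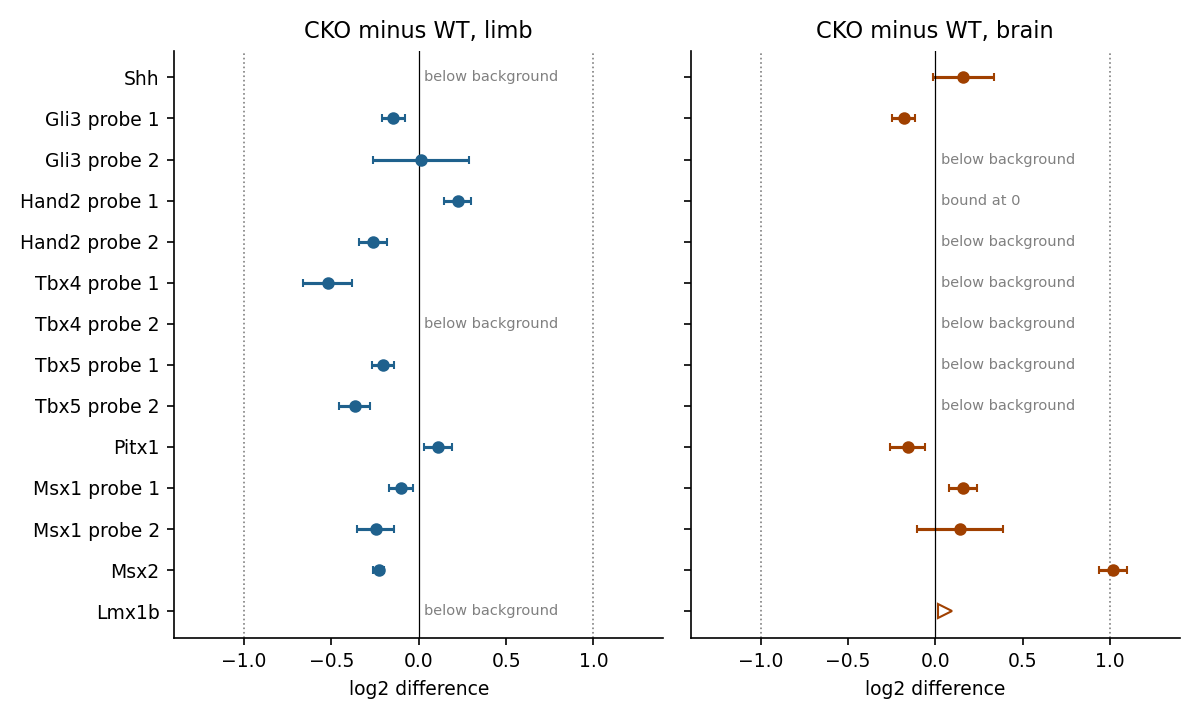
CKO minus WT log2 difference of each probe in limb (left) and brain (right), with bars for the SD of a single-spot difference and dotted lines at 2-fold. The open triangle is a lower bound. The 11 limb points lie between -0.52 and 0.22, and Msx2 in brain lies at 1.02.

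The other genes of the Msx and Bmp list did not share the size of the Msx2 difference in brain. Of 14 genes compared between CKO and WT brain, Msx2 alone was at least 2-fold higher and 0 were lower, with a median of 0.09 against -0.01 over all genes. The Bmp target Id3 was higher by 0.61, and Id1, another target, by 0.43. In limb 0 of 13 differed by 2-fold, with a median of -0.10. Between tissues, 7 of 13 genes tested by limma were lower in brain and 3 were higher. Id4, a gene of neural progenitors, exceeded its WT limb value in WT brain by 3.76, and Id1 was lower, at -2.41.

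Msx2 is also expressed in cranial mesenchyme and skull primordia, and markers of these tissues differed between the brain samples. Of 12 cranial and limb mesenchyme genes, all detected on both brain arrays, 11 were higher in CKO brain, 6 of them at least 2-fold, and Col1a1 was lower, at -1.32, with a list median of 0.95. The transcription factors Foxc2, Twist2 and Twist1 were higher by 1.67, 1.33 and 1.27. The summed signal of the 12 genes, in multiples of each array's 75th percentile, was 39.0 in WT brain and 65.4 in CKO brain, against 712 in WT limb and 549 in CKO limb. Of 12 cartilage genes, 10 were at least 2-fold higher in CKO brain and 0 lower, with a median of 2.47 and a summed signal of 8.78 in WT and 24.7 in CKO. Matn1, Matn3, Hapln1, Epyc and Comp were not detected in WT brain, and all 12 were detected in CKO brain. The collagen gene Col9a1 was higher by 5.08, Cnmd by 4.09 and the proteoglycan gene Acan by 4.05, while the cartilage factor Sox9 differed by 0.02. The part of such tissue in the Msx2 value was not tested.

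In limb both lists had medians below 0. The mesenchyme median was -0.25 with 12 of 12 genes lower in CKO, 1 of them, Col1a1 at -2.08, at least 2-fold. The cartilage median was -0.22 with 9 of 11 lower, 1 of them, Epyc at -1.43, at least 2-fold.

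**Figure D5:**
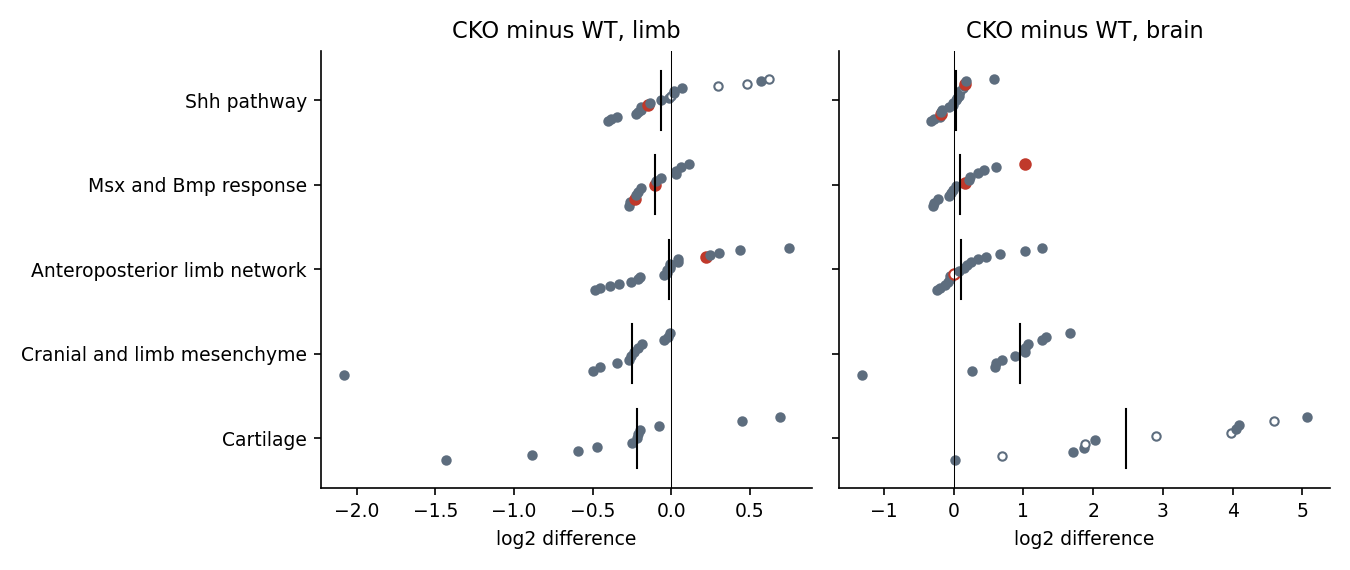
CKO minus WT log2 difference of single genes in 5 lists, in limb (left) and brain (right), with the list median as a vertical bar. Open points are lower bounds and red points are Shh, Gli3, Hand2, Msx1 and Msx2. In brain the cartilage median is 2.47 and the mesenchyme median 0.95, while the Hedgehog pathway median is 0.03.

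Msx1 and Msx2 are paralogs, and the stretch upstream of each start site is shown because the pair differed in brain. Each runs over 250 bases up to the start site, from RefSeq on GRCm38.p6: minus strand, chr13:53472781-53473030 for Msx2 and chr5:37824586-37824835 for Msx1. Capitals mark TAATTA, the core letters of homeodomain sites.
Msx2 upstream: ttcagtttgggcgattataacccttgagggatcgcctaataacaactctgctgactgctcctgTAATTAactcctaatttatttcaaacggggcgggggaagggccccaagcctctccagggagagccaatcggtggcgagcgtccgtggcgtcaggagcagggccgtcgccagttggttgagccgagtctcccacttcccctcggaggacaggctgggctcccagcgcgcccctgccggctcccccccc
Msx1 upstream: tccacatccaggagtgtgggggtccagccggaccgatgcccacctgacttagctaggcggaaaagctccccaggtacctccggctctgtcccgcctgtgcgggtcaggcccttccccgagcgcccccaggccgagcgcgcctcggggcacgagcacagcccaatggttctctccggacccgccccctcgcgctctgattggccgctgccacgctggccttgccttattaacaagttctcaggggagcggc

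The promoter table held 6 of the 9 genes (Lmx1b, Msx1, Hand2, Tbx4, Gli3 and Msx2), in windows of 300 bases reaching 50 past the start site. TAATTA, searched on both strands, was found upstream of Msx2, with its first base at -187, and upstream of Hand2, at -175. It was found in 5.29% of the 32851 promoters in the table. CATCTG, letters bound by Hand2 dimers and other factors of its class, was in the windows of Hand2, Tbx4 and Gli3 and in 17.2% of all promoters. The Gli letters TGGGTGGTC (0.253% of promoters), the T-box letters AGGTGTGA (1.28%) and the Pitx letters TAATCC (7.06%) were in 0 of the 6 windows. The core of RE1, the element bound by REST, was in 0 of the 6 windows and in 0.0213% of all promoters. Its left arm TTCAGCACC (0.371%) and its right arm (0.137%), searched alone, were also in 0 of the 6. A match is a description of letters in the window only.

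Lmx1b, the dorsal homeodomain factor, was measured by 1 probe that crosses an intron at chr2:33420264-33420611. It read -6.14 (WT) and -5.92 (CKO) in limb, and -6.99 (WT) and -5.31 (CKO) in brain, and only the CKO brain value was well above background, at an intensity of 25.3. CKO brain exceeded WT brain by at least 0.05 and CKO limb by at least 0.45, and both bounds were 0 with the normexp background. Lmx1b thus had no usable limb level on these arrays.

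Lmx1b in the embryonic brain marks roof plate and midbrain dopamine and hindbrain serotonin lineages. Of 12 genes of those neurons, all detected on both brain arrays, 0 differed by 2-fold between CKO and WT brain, with a median of -0.01. Of 9 roof plate and dorsal midline genes compared in brain, 0 differed by 2-fold, with a median of -0.09, and Wnt1 was not detected in WT brain. Rspo3 of this list was lower in CKO brain, at -0.84 on its brightest probe and -0.45 on its other probe. Over all genes, 2.59% differed by 2-fold between the brain samples.

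The dorsoventral and ectodermal ridge list held 13 genes on the array. In limb 1 of 10 compared genes was at least 2-fold lower in CKO and 0 were higher, with a median of -0.26 against -0.02 over all genes. The gene was Sp6, a zinc finger factor of the ridge, at -1.01. That value is barely past 2-fold, on 1 of its 2 probes, and was not recomputed with other background corrections. Over all genes, 2.16% were at least 2-fold lower in CKO limb. The ridge signal Fgf8 differed by -0.61, the dorsal ectoderm signal Wnt7a, which induces Lmx1b, also by -0.61, and Tfap2b by -0.59. Epidermal genes were lower in the same direction: 10 of 10 were lower in CKO limb, 1 of them at least 2-fold, with a median of -0.59 and a summed signal of 179 in WT and 116 in CKO limb. All 10 were detected in both. Krt1 differed by -1.20 and Krtdap by -0.94. The part of ectoderm in the Sp6, Fgf8 and Wnt7a values was not tested. In brain 0 of 12 differed by 2-fold, with Fgf10 higher by 0.77.

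For the 5 probes detected on all 4 arrays, the genes with the most similar pattern were found by the Euclidean distance between the 4 values after centring each probe on its own mean. Among 21557 probes, the nearest genes to Msx2 were Col16a1 (distance 0.07), Tcea3 (0.13) and Rarg (0.13). The nearest to Gli3 were Ptgfrn (0.02), Kif20b (0.03) and Csad (0.05), and to Pitx1 they were Cln6, Npnt and Zdhhc15 (0.08 to 0.09). The first Msx1 probe lay nearest to Erbb2, Impa2 and Tanc1, and the second to Frmd6, Pycard and Rflnb. With 4 arrays, many genes have close patterns by this measure.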

How the data were processed

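The 4 samples were profiled on Agilent single-colour arrays. The submitters' processing notes name Agilent Feature Extraction 9.5.3.1. The values the authors deposited are intensities, background-subtracted and detrended within each array per the file headers, with no normalization between arrays. A deposited series table repeats these intensities in rounded form (largest gap 0.0071 log2 over 45018 features).

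Control spots and spots marked as outliers were left out. Signals were taken as log2, the array's 75th percentile was subtracted, and spots were averaged per probe. Where a probe was well above background on 1 array of a pair, the bright value was set against the lowest normalized signal of a detected probe on the dim array, or the dim probe's own value if higher. A bound pointing the wrong way was set to 0. For a gene in a list, the probe brightest on average was used. Differences between CKO and WT, and between tissues within a genotype, have 1 array per group and no test, and are read at 2-fold. An additive fit of genotype and tissue used limma 3.58.1 (R 4.3.3) with Benjamini-Hochberg adjustment over 23688 probes well above background and unsaturated on all 4 arrays. The fit was tested on simulated data with known changes, and its genotype term, with 1 residual degree of freedom, lacked the power to call them.

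Probe positions are on mm9. The members and the 15 lists of other genes were chosen with earlier results of these data known. Results of 2 of the lists are not reported here. Every member probe is named. From the lists, up to 4 genes that differ most were to be named, if measured on both arrays and past 1.5-fold. This was not done for every list and comparison, and other genes were chosen after their values were seen. Alternatives were other background corrections, scalings and detection filters, the series table's values, and outlier spots kept. The last 2 were chosen after seeing the data. Calculations used Python 3.11.15, numpy 2.4.6 and pandas 2.3.3.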

Additional observations from a re-analysis of the deposited data

Results flagged for a closer look

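In 3 members the CKO minus WT difference had opposite signs in brain and limb. Msx2 was higher in CKO brain by 1.02 and differed by -0.23 in limb, and both values exceed the spot error. Msx1, on its first probe, differed by 0.16 in brain and by -0.10 in limb. Pitx1 differed by -0.16 in brain and by 0.11 in limb. With 1 array per group, the difference between tissues was not tested for any of the 3 genes, and for Msx1 and Pitx1 all 4 values are under 1.12-fold.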

How the results depend on the processing

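Of 44 member differences, 40 kept their sign and 41 their side of 2-fold over 4 alternatives: normexp background correction, quantile normalization and scaling by the median or by the probes detected on all arrays. The 44 include bounds, 2 between the brain samples and 7 in each tissue comparison. A bound is cut at 0 and the detection calls were held fixed, so a bound cannot reverse its sign. The Hand2 bound of 0 between the brain samples counts as kept, so the sign count says little for bounds. The 3 that crossed 2-fold were Msx2 in CKO against WT brain (0.68 with normexp), Shh in WT brain against WT limb (at least 0.84 with normexp, against 1.85) and the dim Gli3 probe in CKO brain against CKO limb (-0.52 with normexp, against -1.34). Of 264 alternative values, which add the series table and outlier spots kept, 234 stayed within the single-spot SD and 30 moved beyond it. Most of the 30 were normexp values. The values from the series table and with outlier spots kept nearly repeat the main ones, so they raise the count that stayed. The number of probes at least 2-fold different over the whole array depended more on the processing. Between CKO and WT limb it was 1185, and 561 with normexp (64.53% of them higher, against 53.59%), 660 with probes well above background on both arrays and 2590 with no filter on dim probes. Between CKO and WT brain it was 666, and 269, 329 and 1908 under the same settings. Between CKO brain and CKO limb it was 9373, and 5983 with normexp. The limma genotype fit called 0 probes and 5386 with no filter, of which 5308 were lower in CKO, while its tissue count of 15816 stayed within 1.5 times under every alternative run. The cause was not tested. No scaling moved the median of all genes by over 0.1. No paired analysis was possible because each group had 1 array. The number of arrays limits the precision, and signal over background limits Shh in limb, Lmx1b, the second Tbx4 probe and the brain values of Tbx4, Tbx5 and Hand2.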

Other observations

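Pan-neuronal genes, many of them repressed by REST outside neurons, were higher in CKO limb than in WT limb: 12 of 12 were higher, 6 of them at least 2-fold, with a median of 1.35 and a summed signal of 4.84 in WT and 13.7 in CKO limb. In brain 0 of the 12 differed by 2-fold, with a median of 0.00. Skeletal muscle genes in limb gave 0 of 10 at 2-fold, with a median of 0.39. In brain, where muscle signal was low (summed signal 0.268 in WT and 0.657 in CKO), 2 of 6 compared muscle genes were at least 2-fold higher in CKO.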
